A study of Macaca fascicularis with 48 samples.

Results

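CENPP encodes a protein of the centromere, and 4 matrix genes, ASPN, OMD, OGN and ECM2, lie inside its longest intron. These 5 genes were followed here in 6 tissues of cynomolgus monkeys (Macaca fascicularis), out of 16842 genes in the deposited count table. CENPP was chosen from measured values: it was the gene ranked first by p in the comparison of treated with control liver. The other 4 were chosen by their place in the genome. Values of the liver comparison therefore describe the genes and carry no test.

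The study dosed monkeys by oral gavage with GS-8873, which the labels describe as an inhibitor of HBV mRNA transcripts, at 6 mg/kg/day, or with 0 mg/kg/day in the controls. Dosing lasted 13 weeks in all groups, and messenger RNA was then read in liver, in cervical, thoracic and lumbar spinal cord, and in cervical and lumbar dorsal root ganglia. Of each tissue there were 4 libraries per arm, 2 of them male and 2 female. The labels give no HBV infection, strain, genetic change or age for any group.

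Small leucine-rich proteoglycans are secreted proteins of connective tissue whose repeats bind collagen and growth factors. OGN (osteoglycin, also called mimecan) and OMD (osteomodulin, also called osteoadherin) carry keratan sulfate in some tissues and were first described in bone and cornea. ASPN (asporin) binds collagen and TGF-beta and is best known from cartilage and periodontal ligament. ECM2 (extracellular matrix protein 2) is a related leucine-rich matrix protein. CENPP is a subunit of the constitutive centromere-associated network, the group of proteins that sits at the inner kinetochore and links centromeric chromatin to the machinery of cell division. In nerve and cord, fibroblasts of the meninges and of the nerve sheaths are known sources of such matrix proteins.

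In the coordinates of the deposited table (build Macaca_fascicularis_5.0), CENPP runs from base 106499436 to base 106787079 of chromosome 15 on the plus strand, a span of 287.6 kb with 9 exons that total 912 bp. Its intron 5, from base 106558932 to base 106774459, is 215.5 kb long and holds all 4 matrix genes, each on the minus strand. OGN (bases 106563321 to 106584186, 7 exons) comes first, followed by OMD (106593165 to 106603339, 3 exons), ASPN (106638826 to 106663916, 8 exons) and ECM2 (106674911 to 106718358, 11 exons). RefSeq's annotation of another macaque assembly, T2T-MFA8v1.1, also places these 4 genes, and no other protein-coding gene, within CENPP. No annotated exon of the 5 genes shares a base with an exon of another gene in the table. The libraries were stranded, but the counting command named no strand, so a read within an exon counted for its gene whichever strand it came from.

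**Figure D1:**
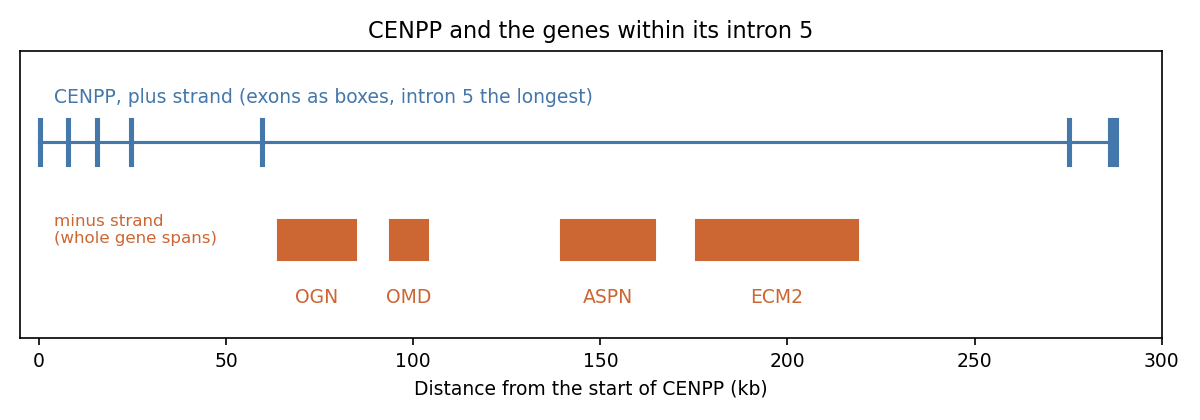
Map of the locus, with distance from the start of CENPP in kb on the horizontal axis, exons of CENPP as blue boxes on its line, and the whole spans of the 4 minus-strand genes as orange boxes. All 4 spans lie within intron 5, which is 215.5 kb of the 287.6 kb of CENPP.

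Depth was even, at 35453786 to 53480762 counts per library. The labels name 4 control animals, which gave all 6 tissues, and 6 treated animals: 4 gave liver and the cord regions, while the ganglia came from 6, of which 2 gave both regions. Tissue markers matched the labels in most libraries, but not in all. The central myelin gene MOG was at 0.213 CPM (a gene's reads in parts per 1e6 of the library's counts, scaled across all 48 libraries by the TMM method) in lumbar cord control 1 and at 0.0716 CPM in lumbar cord treated 1. In every other cord library it was at 260 CPM or more. Results of the 5 genes that rest on lumbar cord are therefore also given without these 2 libraries where that changes them. The lists of other genes were not checked in this way.

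The 5 genes differed widely in level. Per length (RPKM, the scaled CPM per kilobase of annotated exon), the medians over the 48 libraries were 47.4 for OGN, 7.99 for ECM2, 6.94 for OMD, 2.30 for CENPP and 0.662 for ASPN. The order was another in liver, where the medians over 8 libraries were 10.4 RPKM for ECM2, 9.23 for ASPN, 6.71 for OGN, 4.25 for CENPP and 1.4 for OMD. Neighbours in these orders overlapped: in liver, ECM2 ranged from 6.43 to 13.1 RPKM and ASPN from 3.96 to 12.3 RPKM. In cord the median of OGN was 33.9 RPKM and that of ASPN 0.526, and in ganglia they were 81.8 and 0.509.

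In liver, CENPP stood at 1.47, 1.4, 2.19 and 2.07 CPM in the 4 controls and at 5.57, 5.96, 6.77 and 8.14 CPM in the 4 treated monkeys. Every treated library lay above every control library, and within each arm the highest value was at most 1.56 times the lowest. These levels rested on 33 to 58 reads per control library and 152 to 225 reads per treated library. The mean was 1.78 ± 0.405 CPM (SD, n = 4) in controls and 6.61 ± 1.14 CPM (SD, n = 4) in treated liver, and the fitted log2 fold change was 1.91 ± 0.19 (SE). As a share of all counts with no scaling, the means were 0.858 ± 0.229 CPM of total counts in controls and 3.58 ± 0.616 CPM of total counts in treated liver. CENPP ranked first of 12609 genes in that fit. The gene ranked next was GNPTG, which encodes the gamma subunit of the transferase that marks proteins bound for the lysosome, at 71.0 ± 3.80 CPM in controls and 41.4 ± 4.97 CPM in treated liver (log2 fold change −0.78 ± 0.11). Since CENPP was chosen on this contrast, its separation is a description; 5.12% of all genes tested in liver had arms that did not overlap.

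Other features of the liver libraries also differed by arm. The TMM scaling factors, which enter every CPM level, were 0.443 to 0.496 in controls and 0.533 to 0.549 in treated liver. The summed level of 8 hepatocyte markers was 432888 to 481124 CPM in controls and 339911 to 367510 CPM in treated liver, with no marker at 0. ALB, which encodes albumin, alone stood at 299586 to 342271 CPM in controls and 219015 to 242790 CPM in treated liver. The part of these features in the level of CENPP was not tested. In bulk tissue, fewer cells of a type and less RNA per cell cannot be told apart. The summed level of 11 stellate cell markers overlapped between the arms, at 602 to 803 CPM and 483 to 682 CPM, as did that of 17 fibroblast markers, at 439 to 533 CPM and 378 to 560 CPM, of which MFAP5 and SFRP2 were at 0 in some libraries.

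For each of the genes within intron 5 the arms overlapped in liver. ASPN stood at 11.3, 10.6, 9.83 and 12.1 CPM in control liver and at 15.3, 4.92, 13.2 and 11.6 CPM in treated liver, so the treated values lay on both sides of the controls. ECM2 stood at 26.2, 44.8, 52.6 and 46 CPM in controls and at 53.6, 32.7, 40.2 and 32.6 CPM in treated liver, which overlapped as well. OMD ranged from 3.14 to 8.67 CPM in controls and from 1.16 to 3.74 CPM in treated liver, and OGN from 15.9 to 42.9 CPM and from 10.6 to 22.7 CPM. The log2 fold changes were 0.04 ± 0.31 for ASPN, −0.08 ± 0.25 for ECM2, −0.56 ± 0.28 for OGN and −1.03 ± 0.45 for OMD. The genes on either side of CENPP were close to 0: NOL8, 1847 bp before its start, had 0.06 ± 0.09, and IPPK, 1414 bp beyond its end, had 0.11 ± 0.14. NOL8 encodes a nucleolar protein and IPPK a kinase that makes inositol hexakisphosphate. Of the 13 other genes within 500 kb, 9 were tested in liver, and their log2 fold changes ran from −0.63 for WNK2 to 0.16 for FGD3.

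**Figure D2:**
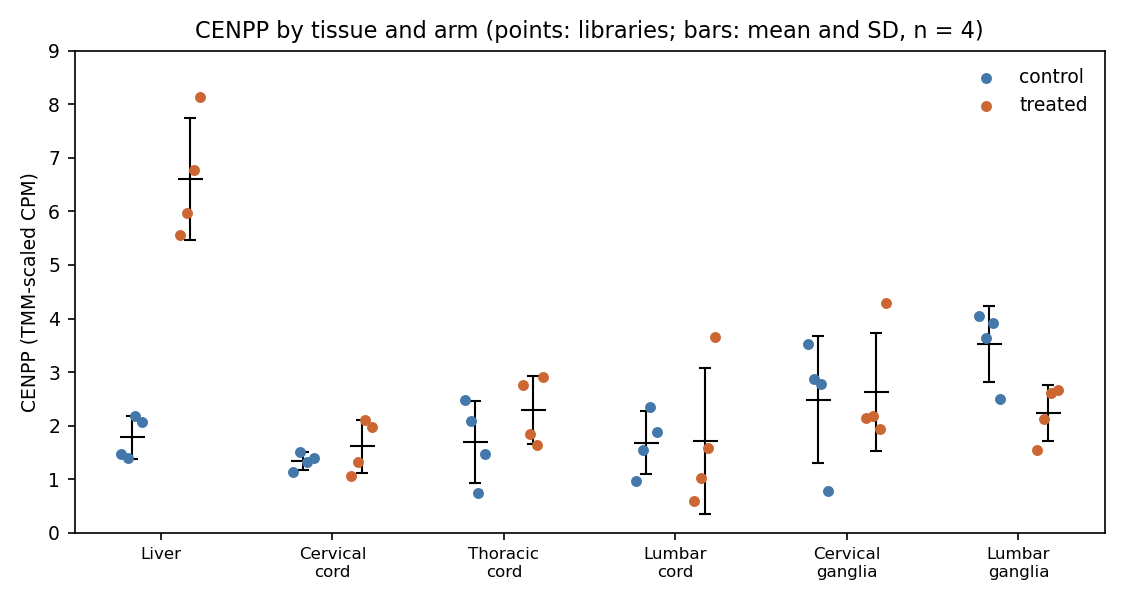
CENPP in each library as TMM-scaled CPM (vertical axis), by tissue and arm, with points for libraries and black bars for the mean and SD of 4. On this scale the treated liver libraries lie at 5.57 CPM or above, while every library of the other tissues lies at 4.28 CPM or below. With no scaling they overlap, at 3.06 to 4.42 CPM of total counts in treated liver and 3.10 to 4.58 in control lumbar ganglia.

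CENPP was then compared in the 5 tissues that its choice did not use, which came from the same animals in cord and from partly other animals in the ganglia. No comparison passed the threshold, an adjusted p under 0.05 (edgeR's quasi-likelihood test with Benjamini-Hochberg adjustment over all genes tested). In cervical cord CENPP stood at 1.13, 1.52, 1.32 and 1.39 CPM in controls and at 1.06, 1.32, 2.10 and 1.97 CPM in treated monkeys. In thoracic cord it stood at 2.48, 2.09, 0.743 and 1.47 CPM in controls and at 2.76, 1.84, 1.64 and 2.91 CPM in treated monkeys. In lumbar cord it stood at 0.958, 1.54, 2.35 and 1.89 CPM in controls and at 0.591, 1.02, 1.59 and 3.66 CPM in treated monkeys. The arms overlapped in all 3 regions. The log2 fold changes were 0.21 ± 0.30 (adjusted p = 0.776) in cervical, 0.51 ± 0.42 (adjusted p = 0.981) in thoracic and −0.22 ± 0.44 in lumbar cord, and 0.18 ± 0.30 (adjusted p = 0.896) with the regions summed per animal. None of the 5 genes was called in any of these 4 cord comparisons, where 0% of all genes were called.

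In cervical ganglia CENPP stood at 3.53, 2.86, 2.77 and 0.78 CPM in controls and at 2.14, 2.17, 1.93 and 4.28 CPM in treated monkeys (log2 fold change 0.14 ± 0.50, adjusted p = 0.96), where again 0% of genes and none of the 5 were called. In lumbar ganglia it stood at 4.05, 3.63, 3.91 and 2.49 CPM in controls and at 1.54, 2.13, 2.60 and 2.67 CPM in treated monkeys. There 2 of the 4 treated libraries lay below every control. The log2 fold change was −0.65 ± 0.25, with an unadjusted p of 0.0331 and an adjusted p of 0.182 (edgeR), in a tissue where 22.6% of all genes had an unadjusted p under 0.05. None of the 5 genes was called in lumbar ganglia, where 4.29% of all genes were called. With both ganglion regions in 1 limma model that keeps the animal as a block, CENPP was at −0.29 ± 0.40 (adjusted p = 0.83), and again none of the 5 was called against 0.977% of all genes. The effect of treatment on CENPP did not pass the test of a difference between ganglion regions (−0.63 ± 0.38 lumbar minus cervical, limma, adjusted p over 0.05), nor did that of any of the 5 between regions of ganglia or cord, where 0% of genes passed.

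The treated monkey with the highest liver level of CENPP, treated replicate 4, was also the highest of its arm in 3 of its 4 other tissues. It had 2.91 CPM in thoracic cord, 3.66 CPM in lumbar cord and 4.28 CPM in cervical ganglia, and ranked second in cervical cord with 1.97 CPM. Its libraries outside liver also had a large share of mitochondrial counts, at 25.7% in cervical cord, 36.4% in thoracic cord, 27% in lumbar cord and 23% in cervical ganglia, against medians of 15.4% over treated cord and 10.5% over treated ganglia. In its liver that share was 7.29%. The part of this in its level of CENPP was not tested.

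The other subunits of the centromere network were counted as a list chosen with earlier results known. Of the 15 other genes of the network and CENPA that were found, 14 were tested in liver, 7 with a higher and 7 with a lower level in treated monkeys, and their median log2 fold change was 0.00 against 0.01 over all genes. The members with the smallest p were ITGB3BP, which encodes CENP-R, at 1.94 ± 0.845 CPM in controls and 4.69 ± 1.86 CPM in treated liver, and CENPH at 0.741 ± 0.224 and 1.93 ± 1.15 CPM. CENPN went the other way, at 5.58 ± 3.12 and 4.14 ± 1.7 CPM. Summed over the list, the level was 65.8 to 106 CPM in control and 62.3 to 86.5 CPM in treated liver. Of the genes of proliferating cells, 18 of 25 had a higher level in treated liver, as did 6544 of all 12609 genes. The list had a median log2 fold change of 0.19 against 0.01 over all genes. Its summed levels were 129 to 152 CPM in control and 137 to 163 CPM in treated liver. Outside liver 0 of the 15 centromere genes and 0 of the 26 proliferation genes passed the test in any of the 7 treated comparisons of cord and ganglia. The member with the smallest p in lumbar ganglia was CENPC, which binds centromeric chromatin directly, at 26.6 ± 3.67 CPM in controls and 38.3 ± 5.46 CPM in treated monkeys (log2 fold change 0.54 ± 0.14, edgeR adjusted p = 0.078).

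The matrix genes had their own distribution over tissues, tested in the 4 control monkeys that gave every tissue, in 1 edgeR fit of 24 libraries with the animal as block. OGN was higher in cervical cord than in liver, at 44.6 to 800 CPM against 15.9 to 42.9 CPM (log2 difference 3.56 ± 1.10, adjusted p = 0.00802), and higher in lumbar ganglia, at 158 to 382 CPM (3.35 ± 1.08, adjusted p = 0.0099). OMD was likewise higher in lumbar ganglia than in liver, at 39.8 to 67.8 CPM against 3.14 to 8.67 CPM (3.22 ± 1.10, adjusted p = 0.0145), and in cervical cord, at 5.31 to 144 CPM, where 1 library overlapped with liver (2.97 ± 1.10, adjusted p = 0.0225). ASPN went the other way. Control liver held 9.83 to 12.1 CPM, while cervical cord held 0.346 to 2.55 CPM (−3.56 ± 0.89, adjusted p = 0.00179) and lumbar ganglia 0.211 to 1.88 CPM (−4.99 ± 0.96, adjusted p = 0.000171). ECM2 did not pass against liver in either tissue (−0.14 ± 0.74 in cord and −0.09 ± 0.72 in ganglia), with overlapping ranges. In both comparisons with liver 3 of the 4 matrix genes thus passed, against 72.2% of all genes. The calls for OMD did not hold without control replicate 2 in either tissue (edgeR adjusted p = 0.0851 in cord and 0.0886 in ganglia), nor in cord without control replicate 1 (edgeR adjusted p = 0.106) or by limma voom (adjusted p = 0.0967). That of ASPN in cord was at an adjusted p of 0.0523 by edgeR without the animal block. CENPP in control liver, 1.4 to 2.19 CPM, lay beside 1.13 to 1.52 CPM in cervical cord and below 2.49 to 4.05 CPM in lumbar ganglia, given without a test since the control livers took part in its choice.

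Ganglia and cord were also compared at the same level of the spine. None of the 5 passed between cervical ganglia and cervical cord of the controls, against 44.2% of all genes, or between lumbar ganglia and lumbar cord, against 38.9%. CENPP came nearest, with a log2 difference of 1.02 ± 0.41 between the lumbar tissues (edgeR adjusted p = 0.0579). All 4 control lumbar ganglia lay above all 4 lumbar cords, and 37.2% of all genes had groups that did not overlap. It passed by DESeq2 (adjusted p = 0.0289), by limma voom (adjusted p = 0.0308), and by edgeR without the animal block (adjusted p = 0.0412) or without control replicate 4 (adjusted p = 0.0423). Without that replicate it also passed between the cervical tissues (1.23, edgeR adjusted p = 0.0363). For OGN the spread among lumbar cords was wider than the difference, since it was at 270 ± 104 CPM in lumbar ganglia and 444 ± 536 CPM in lumbar cord (SD, n = 4 each).

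**Figure D3:**
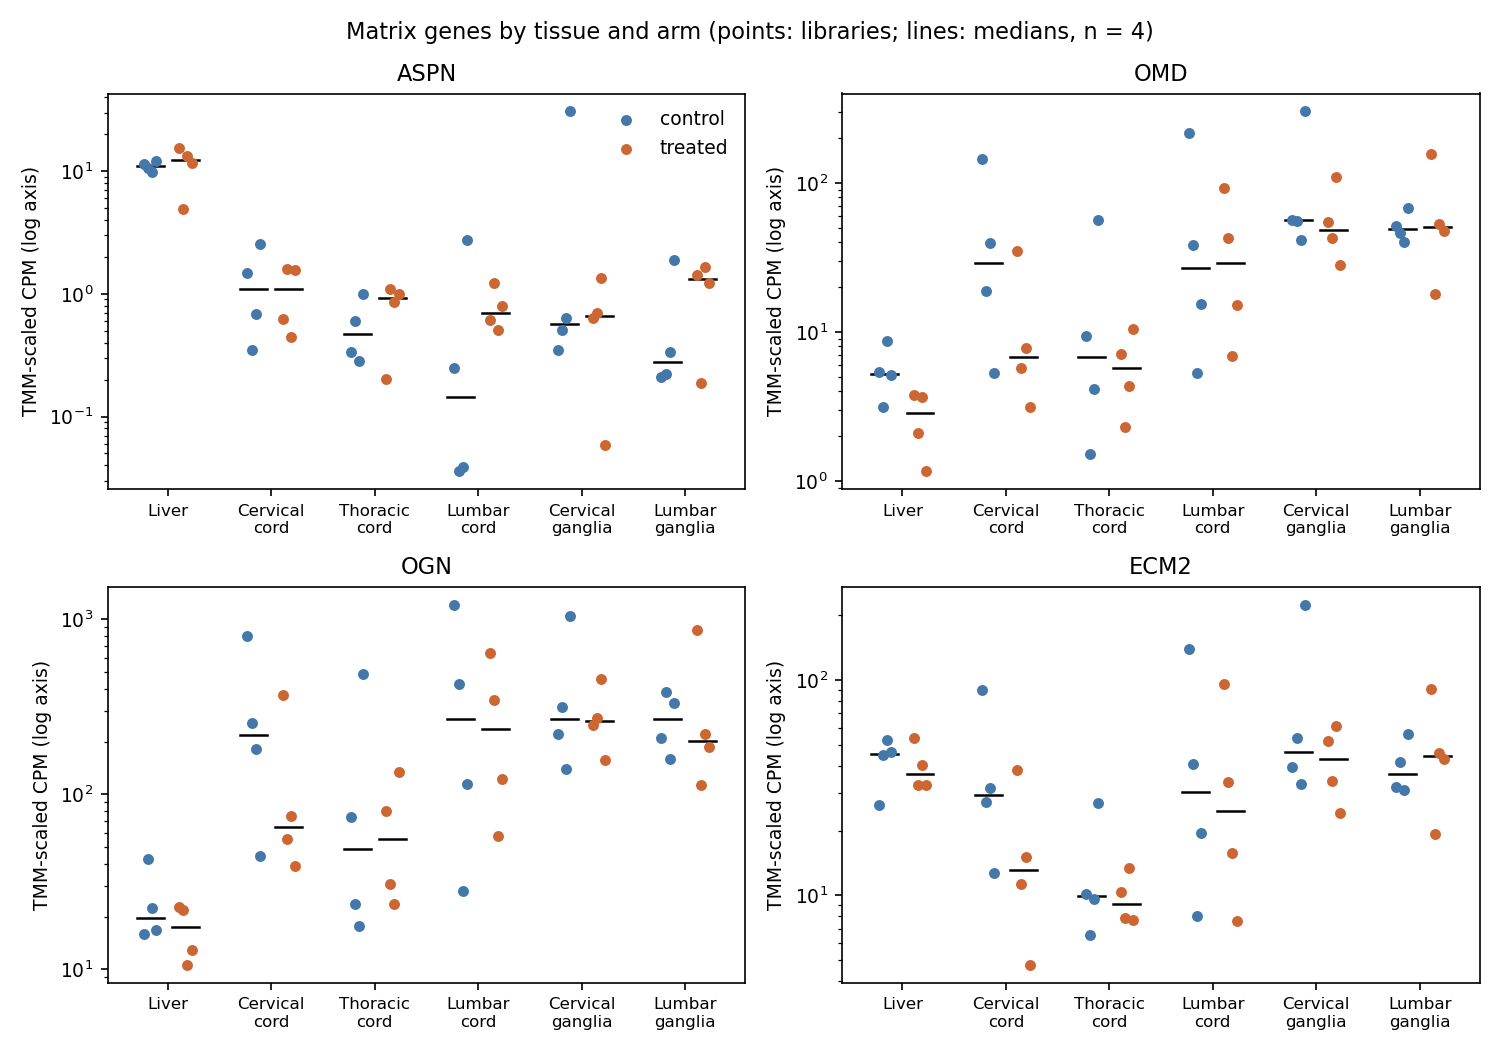
The 4 matrix genes in each library as TMM-scaled CPM on a log axis, by tissue and arm, with points for libraries and lines for medians of 4. ASPN lies at 4.92 CPM or above in every liver and at 2.74 CPM or below in every other library but 1, a control cervical ganglion at 30.6 CPM. OGN spans 17.8 to 1206 CPM over the cord libraries.

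Among control libraries, the matrix genes varied more in cord and cervical ganglia than in liver. In cervical ganglia the wide spread of OGN, OMD and ECM2 came from control replicate 4. Without it they ran from 139 to 314 CPM, from 41.2 to 56.5 CPM and from 33 to 53.7 CPM. OGN stood at 1206, 426, 28.1 and 115 CPM in the 4 control lumbar cords and at 638, 348, 57.9 and 121 CPM in the treated ones. In cervical cord it stood at 800, 255, 182 and 44.6 CPM in controls and at 370, 55.5, 75.1 and 38.8 CPM in treated monkeys. In thoracic cord the high library was another, with 73.9, 23.5, 17.8 and 488 CPM in controls and 80.0, 30.8, 23.5 and 134 CPM in treated monkeys. The highest control value of OGN was 42.9 times the lowest in lumbar cord, 27.5 times in thoracic and 17.9 times in cervical cord, but 2.70 times in liver and 2.41 times in lumbar ganglia. The largest cord values of OGN came from lumbar cord control 1 and treated 1, the libraries with almost no MOG, and from cervical cord control 1.

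OMD and ECM2 were high in the same libraries. OMD stood at 215, 38, 5.31 and 15.4 CPM in the control lumbar cords, and ECM2 at 139, 40.6, 8.04 and 19.5 CPM. In control cervical ganglia replicate 4 held the most of each: OGN stood at 221, 314, 139 and 1046 CPM, OMD at 56.5, 55.3, 41.2 and 301 CPM, and ECM2 at 39.3, 53.7, 33 and 222 CPM. OGN, OMD and ECM2 shared the highest library in 9 of the 12 groups of 4, and the lowest in 7. OGN and OMD alone shared the highest in 10.

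Of the markers of the meninges, SLC13A4 and SLC47A1 were high and low in the same lumbar cord libraries as OGN. SLC13A4, a sulfate carrier of meningeal cells, stood at 219, 52.2, 0.736 and 11.1 CPM in the control lumbar cords, and SLC47A1, an organic cation carrier also used as a marker of meningeal fibroblasts, at 228, 99.3, 9.65 and 18 CPM. Both had the same order of libraries as OGN. They were picked from the 10 markers of meninges and perineurium, and the order of the others in lumbar cord is not reported here. In thoracic control 4, where OGN was at 488 CPM, SLC13A4 was at 45.1 CPM against 0.575 to 1.06 CPM in the other 3, but FOXC1, a transcription factor of meningeal and other mesenchymal cells, was the lowest of its group at 0.359 CPM against 0.519 to 1.10 CPM. PRX, which encodes periaxin of Schwann cells, also had the order of OGN in the control lumbar cords, at 4337, 1548, 33.3 and 146 CPM. It stood at 3907 CPM in lumbar cord treated 1 and at 1342 CPM in cervical cord control 1, against 169 to 702 CPM in the ganglia, while thoracic control 4 had 4.16 CPM. The 10 markers of meninges and perineurium summed to 397 to 1754 CPM over control lumbar cords and 383 to 1214 CPM over treated ones, to 409 to 637 CPM and 327 to 522 CPM over control and treated thoracic cords, and to 459 to 1286 CPM and 487 to 1156 CPM over control and treated cervical ganglia. Of the 10, LYPD2 alone was at 0 in some of the nervous libraries. DCN, which encodes the proteoglycan decorin, a marker of fibroblasts, reached 2301 CPM in lumbar cord control 1 and 51.5 CPM in control 3. The part of these cells in the levels of the matrix genes was not tested.

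ASPN did not follow the other 3. In each of the 6 tissues its highest control value came from the same monkey, control replicate 4. That monkey had 12.1 CPM in liver, beside 9.83 to 11.3 CPM in the other 3, and 30.6 CPM in cervical ganglia, from 1766 reads, beside 0.348 to 0.635 CPM. In lumbar cord it had 2.74 CPM beside 0.0358 to 0.248 CPM, the lowest of which rested on 2 reads, and in lumbar ganglia 1.88 CPM beside 0.211 to 0.333 CPM. In cervical and thoracic cord the margin was smaller, at 2.55 CPM beside 0.346 to 1.49 CPM and 1.00 CPM beside 0.281 to 0.601 CPM. The cervical ganglion library of this monkey was also the highest of its group in OGN, OMD and ECM2, and in FOXC1 at 7.83 CPM beside 1.63 to 2.93 CPM. Its SLC47A1, at 14.1 CPM, was the lowest of that group.

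None of the matrix genes passed the test for treatment in any tissue outside liver. In cervical cord OMD was at 144, 18.8, 39.5 and 5.31 CPM in controls and at 35.1, 5.73, 7.77 and 3.15 CPM in treated monkeys, and the arms overlapped (log2 fold change −2.03 ± 0.89, edgeR adjusted p = 0.504). ECM2 there stood at 89.3, 27.3, 31.5 and 12.8 CPM in controls and at 38.4, 11.3, 15.1 and 4.77 CPM in treated monkeys (−1.21 ± 0.59, adjusted p = 0.504), and OGN had −1.17 ± 0.69 (adjusted p = 0.531). ASPN overlapped fully, at −0.23 ± 0.71 (edgeR adjusted p = 0.903). Summed over the 3 cord regions of each animal, OMD had a log2 fold change of −1.20 ± 0.52 with an unadjusted p of 0.0477 and an adjusted p of 0.858 (edgeR), where 3.49% of all genes had an unadjusted p under 0.05. OGN had −0.80 ± 0.43, ECM2 −0.69 ± 0.44 and ASPN 0.12 ± 0.70 in the same sums.

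**Figure D4:**
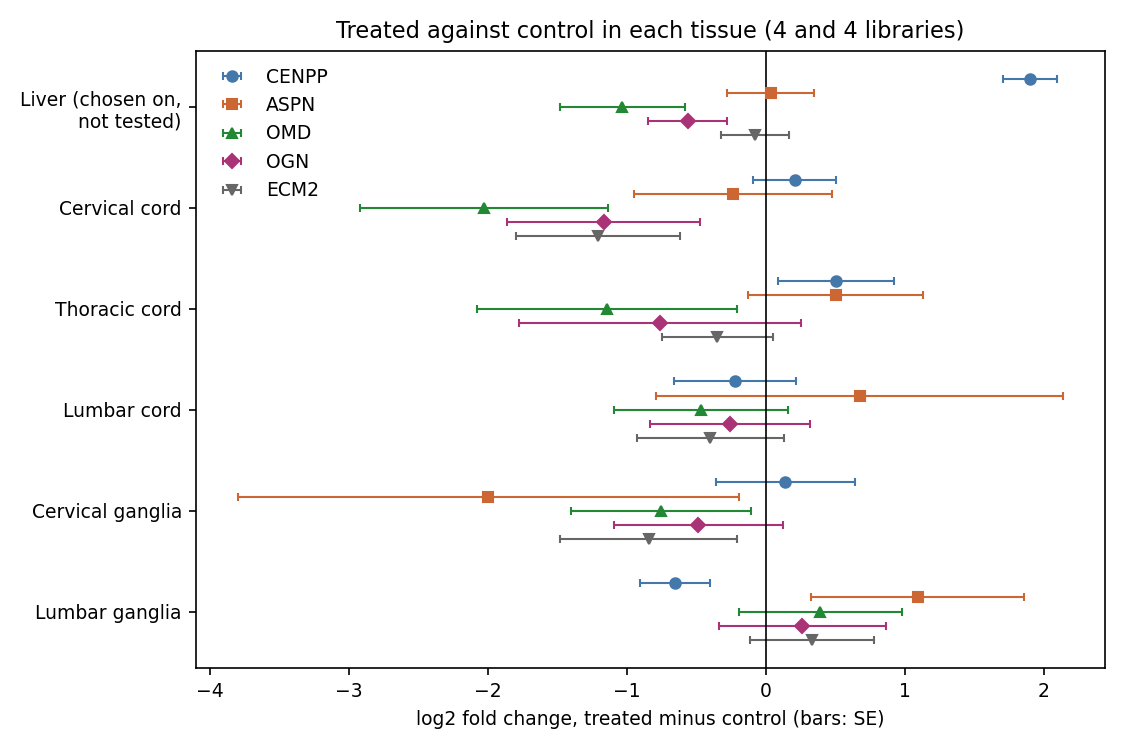
Log2 fold change of treated over control (horizontal axis, bars for SE) of the 5 genes in each tissue, from 4 and 4 libraries. CENPP in liver, on which it was chosen, is at 1.91, and the liver values carry no test. In every other tissue CENPP is between −0.65 and 0.51, and none of the 5 genes passed the test there.

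In the thoracic and lumbar cord the estimates of OMD, OGN and ECM2 lay between −1.14 and −0.26, with standard errors of 0.40 to 1.02, and those of ASPN were 0.50 ± 0.63 and 0.68 ± 1.47. Without thoracic control 4 the estimates were 0.20 for OMD, 0.91 for OGN and 0.14 for ECM2, and without lumbar control 1 they were 0.35, 0.25 and 0.092. Those of ASPN turned to −0.073 without thoracic treated 2 and to −0.15 without lumbar control 2. Without the 2 lumbar libraries that lack MOG the lumbar estimates were 0.065 for OMD and 0.074 for OGN. In cervical ganglia they were −0.75 ± 0.65 for OMD, −0.49 ± 0.61 for OGN, −0.84 ± 0.63 for ECM2 and −2.0 ± 1.80 for ASPN. In lumbar ganglia all 4 were above 0, at 0.39 ± 0.58 for OMD, 0.26 ± 0.60 for OGN, 0.33 ± 0.45 for ECM2 and 1.09 ± 0.76 for ASPN. The treated lumbar ganglia held 1 high library, with OGN at 871, 113, 220 and 186 CPM against 209, 382, 158 and 331 CPM in controls. Over both ganglion regions the limma estimates were −0.19 ± 0.62 for OMD, −0.08 ± 0.60 for OGN, −0.17 ± 0.52 for ECM2 and −0.89 ± 1.3 for ASPN. Each of these 4 turned positive without the control cervical ganglion library 4, at 0.078, 0.12, 0.092 and 0.19.

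Other small leucine-rich proteoglycans were measured from a list that leaves the 4 genes out. In liver 1 of 8 was higher and 7 were lower in treated monkeys, with a median log2 fold change of −0.49 against 0.01 over all genes. FMOD (fibromodulin) stood at 3.52 ± 1.51 CPM in controls and 1.38 ± 0.472 CPM in treated liver, PRELP at 5.87 ± 1.84 and 2.99 ± 1.09 CPM, and DCN at 360 ± 47.5 and 256 ± 66.7 CPM. In cervical cord 4 of 10 had estimates above 0 and 6 below, with a median of −0.56, and in lumbar ganglia 8 of 11 had estimates above 0, with a median of 0.36. Over all genes 49.5% were below 0 in cervical cord, and 8039 of 14267 were above 0 in lumbar ganglia. None of the list passed in cord or ganglia. In cervical cord LUM (lumican), which regulates collagen fibrils in the cornea, was at 37.4 ± 53 CPM in controls and 6.30 ± 5.02 CPM in treated monkeys (−2.04 ± 0.70, edgeR adjusted p = 0.504). DCN there had 334 ± 438 and 94.4 ± 103 CPM (−1.66 ± 0.76, edgeR adjusted p = 0.504).

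Genes of the fibrillar collagens and their crosslinking enzymes, 17 in all, had medians of −0.80 in cervical cord, with 15 of 17 below 0, of −0.09 in liver and of 0.33 in lumbar ganglia, with 15 of 17 above 0. Over all genes the median was 0.004 in cervical cord, with 49.5% below 0, and 0.05 in lumbar ganglia, with 8039 of 14267 above 0. Fibroblast markers, 17 in all, had medians of −0.73 in cervical cord, −0.59 in thoracic cord and 0.27 in lumbar ganglia. The 18 TGF-beta and BMP ligands and receptors had medians of −0.19 in cervical cord and 0.20 in lumbar ganglia. Of these lists 0 genes passed in any of the 7 treated comparisons outside liver. Cervical cord control 1 was far above its group in DCN, at 987 CPM beside 47.3 to 170 CPM, and in PRX, at 1342 CPM beside 4.13 to 101 CPM. The summed collagen list ran from 417 to 2949 CPM over control cervical cords, with a median of 706 CPM. The cervical cord medians of the lists were not checked without control 1, and the genes of a list are not independent.

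The regions of the cord were compared within animals, with 8 libraries a region. ECM2 was higher in lumbar than in thoracic cord, with 7.62 to 139 CPM against 6.59 to 26.7 CPM, overlapping ranges and a log2 difference of 1.35 ± 0.51 (edgeR adjusted p = 0.0349). It was the only one of the 5 called, against 50.5% of all genes. OMD (2.02 ± 0.91, edgeR adjusted p = 0.0757) and OGN (1.74 ± 0.87, adjusted p = 0.106) had larger estimates that did not pass. The call for ECM2 did not hold without the 2 lumbar libraries that lack MOG (0.98, edgeR adjusted p = 0.121), or without control replicate 1 or 2 or treated replicate 1 or 2 in turn (edgeR adjusted p from 0.0834 to 0.113). Of the other proteoglycans 5 of 9 were called higher in lumbar cord, where 50.5% of all genes were called in either direction. Among them were BGN (biglycan) at 1.25 ± 0.30 (edgeR adjusted p = 0.00256) and PODN (podocan) at 1.98 ± 0.53 (adjusted p = 0.00583). These calls used the same libraries and were not checked without those that lack MOG. None of the 5 genes passed between thoracic and cervical cord, against 40.2% of all genes, between lumbar and cervical cord, against 0.0555%, or between lumbar and cervical ganglia, against 0.219%. In the ganglia the estimates were 0.43 ± 0.19 for CENPP and −0.69 ± 0.30 for OMD, −0.57 ± 0.25 for ECM2, −0.51 ± 0.28 for OGN and −1.17 ± 0.65 for ASPN, lumbar minus cervical (limma adjusted p from 0.322 to 0.443).

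How the genes varied together was described over all 48 libraries, as the correlation of each library's log2 difference from the mean of its tissue and arm. These libraries share animals and a scaling, and no p is given. Pearson's r was 0.91 between OGN and OMD, 0.89 between OMD and ECM2 and 0.84 between OGN and ECM2. ASPN had an r of 0.21 to 0.31 with these 3. The relation of OGN and OMD came from the nervous tissues, with an r of 0.96 over 24 cord and 0.93 over 16 ganglion libraries and of −0.20 over 8 livers. CENPP ran against the matrix genes, with an r of −0.70 with ECM2, −0.49 with OMD and −0.43 with OGN. Against ECM2 it was −0.70 in cord and −0.84 in ganglia, but 0.18 in liver. In 10 of the 12 groups the library with the most ECM2 had the least CENPP. In control cervical ganglia, for one, replicate 4 had 222 CPM of ECM2 and 0.78 CPM of CENPP, while the other 3 had 33 to 53.7 CPM and 2.77 to 3.53 CPM. The share of mitochondrial counts also varied within groups. It was 6.97% in that replicate 4 and 8.14 to 9.38% in the other 3. In treated lumbar cord it was 10, 8.91, 13.4 and 27%, where CENPP stood at 0.591, 1.02, 1.59 and 3.66 CPM. In control thoracic cord the orders differed, at 18.8, 25.9, 10.5 and 37.3% beside 2.48, 2.09, 0.743 and 1.47 CPM. The part of this share in these correlations was not tested.

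**Figure D5:**
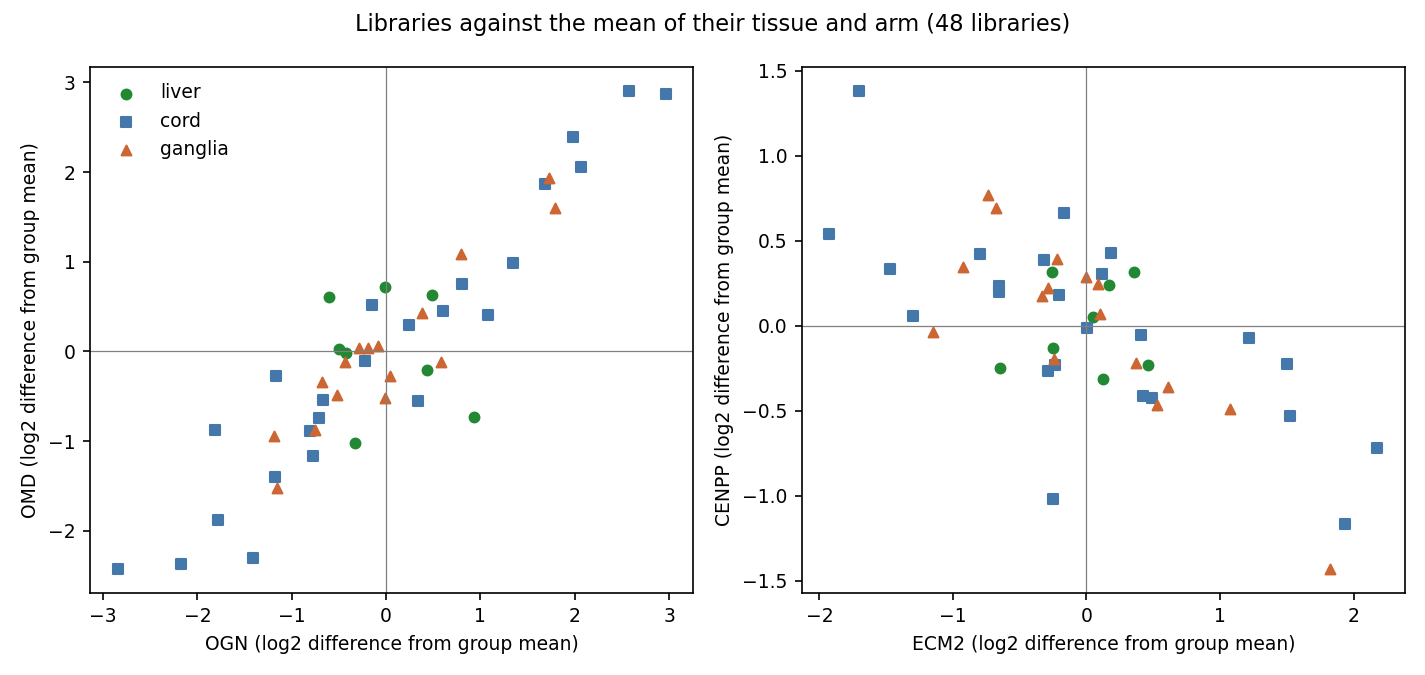
Log2 difference of each of the 48 libraries from the mean of its tissue and arm, for OMD against OGN (left) and CENPP against ECM2 (right), with liver as circles, cord as squares and ganglia as triangles. OGN and OMD are high in the same cord and ganglion libraries (r = 0.91 over all libraries), and CENPP is low where ECM2 is high (r = −0.70).

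Among 13448 genes with a mean of at least 1 CPM, those most like each of the 5 over the same deviations were listed. For OMD they were ISLR (r = 0.93), DCN (0.92) and OGN (0.91), for OGN they included EGFLAM (0.93) and DCN (0.91), and for ECM2 they were PROS1 (0.96), CTSK (0.93) and FBN1 (0.92). FBN1 encodes fibrillin of elastic microfibrils, and CTSK the collagen-degrading protease cathepsin K. For ASPN the likeness was lower, with CYSLTR1 at 0.64, NTN4 at 0.63 and LEPR at 0.63. For CENPP the nearest were VPS26B and MAEA at 0.86 and PTPA at 0.85. Over the levels themselves, which also differ between tissues, CENPP was most like ACTRT3 (0.80), GFOD2 (0.78) and CMAS (0.75), and ASPN was most like LEPR (0.82), TEAD3 (0.80) and FCER2 (0.78).

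Outside the 4 genes of intron 5, 13 genes of the table lay within 500 kb of CENPP, and 0 of them passed the test in the 7 treated comparisons of cord and ganglia. In lumbar ganglia 8039 of all 14267 genes tested had estimates above 0. Of the 11 neighbours tested there, 8 were above 0 and 3 below, with a median log2 fold change of 0.29. The lowest was IARS, which encodes a transfer RNA synthetase, at −0.70 (edgeR adjusted p = 0.0514), and the highest was SUSD3 at 0.76. IARS was the lowest of these neighbours in every comparison of cord and ganglia, with −0.26 in cervical, −0.22 in thoracic and −0.44 in lumbar cord and −0.51 in cervical ganglia.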

How the data were processed

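The authors deposited raw counts per gene, made with featureCounts 1.4.6-p1 on the Macaca_fascicularis 5.0 build per the file headers. STAR 2.5.3a aligned the reads, as the submitters' processing notes say. The counting options listed in the header include no strand and no pairs, so each mate counted as 1 read on either strand. Per the labels' protocols, RNA from tissue in RNAlater was read as stranded 50 bp pairs. Gene lengths are those of the deposited table. Samples were grouped by tissue and dose from the labels, and replicates are separate animals. The 5 genes and all lists were chosen with earlier results of these data known.

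Tests within a tissue used the quasi-likelihood method of edgeR 4.0.16 under R 4.3.3 (robust, TMM, filterByExpr), adjusted for sex. The same test was run on cord counts added up per animal. Ganglia together, their regions and interactions used limma 3.58.1 voom with animal as random block (statmod 1.5.0). Control tissues and cord regions used edgeR with animal as fixed block. A gene was called at a two-sided Benjamini-Hochberg adjusted p under 0.05 over all genes tested, and all 5 genes passed the filter on low counts in every comparison. Printed levels use 1 TMM scaling of all 48 libraries, while fold changes come from each fit. The genes named were the 5, the neighbours, up to 4 of a list with the smallest p, and the 3 most alike. Alternatives were DESeq2 1.42.0, limma voom, other scalings, filters and covariates, and leaving out libraries. The scripts were tested on simulated counts. Some of the genes and results obtained are not reported here.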

Additional observations from a re-analysis of the deposited data

Results flagged for a closer look

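In each group of 4, the highest or lowest library was compared with the rest of its group by Dixon's ratio at its 95% critical value for 4 samples. Of 60 groups, 12 held a library past it. The critical value flags about 1 in 20 groups of independent, normally distributed values. The CPM here are often skewed and the groups share libraries, so the count of 12 cannot be read against that rate. All values are TMM-scaled CPM.

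Control replicate 4 accounted for 7 of the 12. In cervical ganglia it was far above its group in ASPN (30.6, the others at most 0.635), OMD (301, the others at most 56.5) and ECM2 (222, the others at most 53.7). In thoracic cord the same held for OMD (56.0, the others at most 9.38) and OGN (488, the others at most 73.9). That thoracic library had 37.3% mitochondrial counts, the largest share among cord libraries. With no scaling its OGN was 348 CPM of total counts, the others at most 71.4. Control replicate 4 was also apart in ASPN in lumbar cord (2.74, the others at most 0.248) and lumbar ganglia (1.88, the others at most 0.333).

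In cervical cord treated replicate 1 was apart in OMD (35.1, the others at most 7.77) and OGN (370, the others at most 75.1). Control replicate 1 was apart in OMD in lumbar cord (215, the others at most 38), where its library had almost no MOG. In lumbar ganglia treated replicate 1 was apart in OGN (871, the others at most 220). CENPP gave 1 such library, treated replicate 4 of the cervical ganglia (4.28, the others 1.93 to 2.17), which also had the largest share of mitochondrial counts among ganglion libraries, at 23%.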

How the results depend on the processing

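Among the 7 treated comparisons of cord and ganglia, 0 of the 5 genes was called under any of 116 alternative settings, in edgeR, limma and, for single tissues, DESeq2. The log2 fold change of CENPP in liver was between 1.86 and 2.08 under 16 alternatives. That range only describes it, since CENPP was chosen on these same libraries. The replicate number as a block changed no call, and it turned OGN in lumbar ganglia to −0.028 and ASPN in liver to −0.057. Every same-numbered pair had an r over 0.1 in lumbar cord (0.19 to 0.92), where both arms share no animal. In thoracic cord 3 pairs had an r of 0.23 to 0.59 and 1 had −0.24, and each other tissue had a pair at 0.048 or below.

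The count of the 5 genes called changed as follows. Between cervical ganglia and cervical cord it went from 0 to 1 in treated libraries, and ran from 0 to 1 without single animals. Between lumbar ganglia and lumbar cord it went from 0 to 1 by DESeq2, by voom and without the block, and ran from 0 to 1 without single animals. Of the 4 matrix genes, 2 to 3 were called against liver without single animals in ganglia and in cord, and 2 in cord by voom and without the block, around 3. Between thoracic and cervical cord it went from 0 to 2 by voom, and ran from 0 to 1 without single animals. Between lumbar and thoracic cord it went from 1 to 3 by DESeq2, voom and total counts, and to 0 in control animals, in treated animals and without the libraries lacking MOG, and ran from 0 to 3 without single animals. The cause was not tested.

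These log2 differences, none called, changed sign, and CENPP against liver is given with no test. Without the libraries lacking MOG: OMD 0.065 and OGN 0.074 in treated lumbar cord, ASPN −0.078 in summed cord, and CENPP 0.056 in lumbar against thoracic cord. Without cervical ganglion control 4: ASPN 0.19, OMD 0.078, OGN 0.12 and ECM2 0.092 in ganglia together, and ECM2 −0.17 in the interaction. By voom: OGN 0.039 in treated lumbar cord, OGN 0.40 and ECM2 0.26 in lumbar ganglia against cord, and ECM2 0.083 in ganglia against liver. With total counts (chosen after seeing the data, as was the setting without ganglion control 4): OGN 0.023 in ganglia together, OMD −0.073 in lumbar ganglia against cord, ECM2 1.09 and 1.04 in ganglia and cord against liver, CENPP 0.83 in cord against liver, and CENPP 0.090 and ASPN 0.058 in lumbar against thoracic cord. Without the sex term: ASPN −0.033 in summed cord. Without the animal block: ASPN −0.20 and OMD −0.43 in lumbar ganglia against cord, and ECM2 0.036 and 0.053 in ganglia and cord against liver. In the 8 libraries of both tissues only: OGN 0.42 and ECM2 0.41 in lumbar ganglia against cord, and ECM2 0.044 in ganglia against liver. In treated libraries: ASPN −0.55 in cervical ganglia against cord, OGN 0.45 and ECM2 0.62 in lumbar ganglia against cord, CENPP −1.46 and ECM2 0.44 in ganglia against liver, ASPN 0.11 in lumbar against thoracic cord, and CENPP −0.094 in lumbar against cervical cord. In control animals: CENPP 0.070 in lumbar against thoracic and OGN −0.092 in lumbar against cervical cord. Without lumbar cord control 1: OGN 0.73 and ECM2 0.79 in lumbar ganglia against cord.

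Leaving out 1 library or animal at a time gave these ranges of the log2 difference where a sign changed, none of them called. For treated against control, ASPN ran from −0.32 to 0.30 and ECM2 from −0.31 to 0.065 in liver, both with no test. ASPN ran from −0.65 to 0.36 in cervical cord. In thoracic cord ASPN ran from −0.073 to 0.97, OMD from −1.71 to 0.20, OGN from −1.25 to 0.91 and ECM2 from −0.55 to 0.14. In lumbar cord CENPP ran from −0.58 to 0.041, ASPN from −0.15 to 3.07, OMD from −0.80 to 0.35, OGN from −0.63 to 0.25 and ECM2 from −0.72 to 0.092. In summed cord CENPP ran from −0.066 to 0.29 and ASPN from −0.37 to 1.04. In cervical ganglia CENPP ran from −0.28 to 0.32, ASPN from −3.09 to 0.48, OMD from −1.02 to 0.20, OGN from −0.76 to 0.45 and ECM2 from −1.12 to 0.11. In lumbar ganglia OMD ran from −0.60 to 0.68, OGN from −0.69 to 0.63 and ECM2 from −0.33 to 0.60. In ganglia together ASPN ran from −2.07 to 0.78, OMD from −0.58 to 0.31, OGN from −0.48 to 0.40 and ECM2 from −0.47 to 0.31. For cervical ganglia against cord ASPN ran from −0.59 to 1.86, OGN from −0.63 to 1.04 and ECM2 from −0.053 to 1.76, and for lumbar ganglia against cord OMD ran from −0.41 to 1.18, OGN from −0.91 to 0.83 and ECM2 from −0.58 to 0.88. Against liver ECM2 ran from −0.83 to 0.18 in cord and from −0.22 to 0.23 in ganglia, and ASPN ran from −0.60 to 0.072 in lumbar against thoracic cord.

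Depth limits CENPP in control liver, at 33 to 58 reads a library, and CENPP and ASPN in the other tissues, at 33 to 211 and 2 to 1766 reads.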

Other observations

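SPP1 (osteopontin, a secreted protein of bone matrix and macrophages) fell in treated lumbar ganglia, from 1724 ± 405 CPM to 560 ± 184 CPM (SD, n = 4 each; log2 fold change −1.57 ± 0.27, edgeR adjusted p = 0.0249). In cervical ganglia it had −1.27 ± 0.38 and did not pass (edgeR adjusted p = 0.487). It was the 1 gene that passed of the 10 tested from a list of markers of muscle, bone and tendon, against 4.29% of all genes in lumbar ganglia. Of the 10, 8 had estimates below 0, against 43.7% of all genes. The other 10 genes of that list found in the table summed to 12.3 to 256 CPM in control and 14.7 to 131 CPM in treated lumbar ganglia, which overlapped. The list was chosen with earlier results of these data known.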
